A study of Mus musculus with 2 samples.

Results

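The genes described here encode nuclear subunits of the mitochondrial respiratory chain, measured in wounded mouse back skin with and without beta-catenin in the epidermis. They were chosen by name, as every probe whose gene symbol in the non-normalized table begins with Nduf followed by a, b, c, s or v, with Uqcr, with Cox followed by a digit from 4 to 8, or with Atp5, or is Sdha, Sdhb, Sdhc or Sdhd. This gave 88 of 25697 probes, for 73 of 18120 gene symbols. Complex I had 39 probes, complex II 6, complex III 6, complex IV 18 and complex V 19. The rule uses names alone, but it was proposed with earlier results of these data known.

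The samples were skin of C57BL6 mice aged 3 months, and both carried the label of a low calcium diet. The knockout mice were b-catenin fl/fl with Cre driven by keratin 14 (K14), so that recombination was directed to K14-expressing keratinocytes, and the controls were b-catenin fl/fl littermates, whose label names no Cre. Each mouse received 2 full-thickness wounds made with a 6-mm punch, and the tissue was excised with an 8-mm punch after 3 days, so that the wound bed came out with its edge and adjoining skin. Each group was 1 Illumina bead array. The series description gives n = 3 and RNA from 3 mice in each sample, which was read here as 3 mice pooled on each array, with no replicate array, so every difference below is between 2 arrays, has no error estimate and was not tested.

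The respiratory chain passes electrons from NADH (complex I) and succinate (complex II) through ubiquinone, complex III and cytochrome c to oxygen at complex IV, and complex V makes ATP from the proton gradient that results. All complexes but the second also hold subunits encoded by the mitochondrial genome, which were not among the chosen genes. Complex IV, cytochrome c oxidase, has paired isoforms: Cox6a2, Cox7a1 and Cox8b are the forms of heart and skeletal muscle, and Cox6a1, Cox7a2 and Cox8a are found in most tissues. Mouse back skin has a thin layer of striated muscle, the panniculus carnosus, under the dermis.

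Raw probe signals had a median of 177.3 on the control array and 173.5 on the knockout array. A probe was called detected at a raw signal of at least 181.8 (control) or 177.9 (knockout), the limits that 1% of negative controls reach. By this rule 12965 probes were detected on at least 1 array. The 4 keratinocyte markers (Krt14, Krt5, Krt1 and Krt10), 4 macrophage markers and 4 neutrophil markers were detected on both arrays, which checks the tissue label. The deleted gene had 2 probes in normalized intensity, at 2325 in the control and 2344 in the knockout, and at 1048 and 932. Their place relative to the deleted part is not known here and other cells of the skin keep the gene, so they do not check the genotype.

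Expression of the respiratory chain was nearly the same on both arrays. Of the 88 probes, 81 were detected on at least 1 array and 79 on both, which covered 69 of the 73 genes. None of the 81 was at least 1.5-fold higher in the knockout array and none was at least 1.5-fold lower, where 3.94% and 4.67% of all detected probes were (2.75% and 7.3% after median scaling). Most subunit probes were bright, and folds of bright probes vary less. Among the 3771 detected probes with a mean raw signal over 1000, 1.01% were 1.5-fold higher and 1.27% lower, and with 59 such probes among the subunits, a count of 0 is near that background.

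The log2 folds of the subunit probes, knockout over control, ran from -0.33 to 0.54 with quartiles of -0.04 and 0.20, against quartiles of -0.19 and 0.19 for all detected probes and -0.13 and 0.14 for those with a mean raw signal over 1000. Within 1.2-fold lay 66 of the 81 (81.5%), and 62.3% of all detected probes. Among probes over 1000 these were 54 of 59 (91.5%) and 77.5%. The 22 dimmer probes spread more widely (SD over probes 0.27) than the 59 brighter ones (SD 0.14). In bulk RNA, fewer cells of a type and less RNA per cell cannot be told apart.

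**Figure D1:**
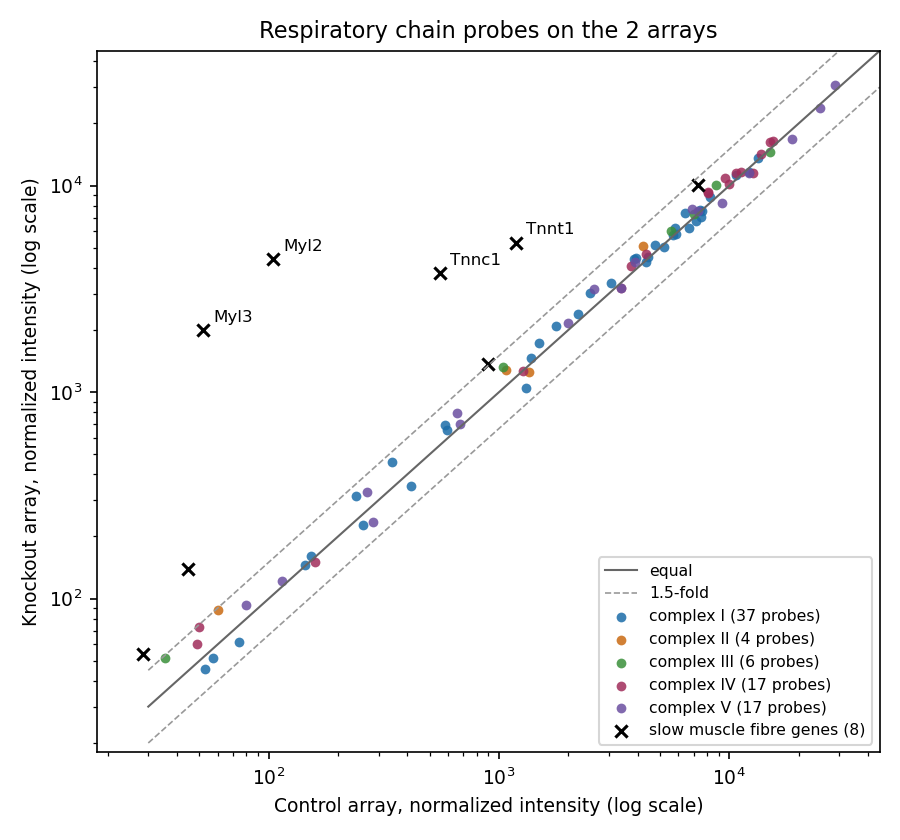
Normalized intensity of the 81 detected respiratory chain probes on the control array (horizontal, log scale) and the knockout array (vertical, log scale), 1 point per probe, coloured by complex, with 8 slow muscle fibre genes as crosses. All subunit probes lie between the dashed 1.5-fold lines, while Myl2, Myl3, Tnnc1 and Tnnt1 lie far above them.

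The sign of the small common shift depended on the scaling. After quantile normalization 56 of the 81 probes lay above 0 (51.3% of all detected probes did), with a median log2 fold of 0.09 beside 0.01 for all detected probes, but after median scaling 42 lay above 0 (35.8% of all), and in raw signal 56 were higher in the control. Median scaling sets equal the medians of all 25697 probes. In raw signal these medians (177.3 in the control and 173.5 in the knockout) lay below the detection limit on both arrays. This scaling moved the median of all detected probes by -0.11, to -0.10, and that of the subunits to 0.02. Relative to all detected probes the subunit median was 0.08 higher with quantile normalization, 0.12 higher with median scaling, and 0.07 higher in raw signal and in the authors' normalized intensities. With 1 array per group these offsets have no error estimate.

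Complex I, which oxidises NADH, had the lowest median, 0.03 over 37 detected probes, with 24 above 0 (15 after median scaling, where the median was -0.03). Its 7 detected probes for the catalytic core subunits had a median of 0.20, and the 29 for accessory subunits had 0.03. Among core subunits, the raw signal of Ndufs3 was 2774.3 on the control array and 2947.4 on the knockout array (log2 fold 0.29). The flavoprotein Ndufv1, which takes the electrons from NADH, read 6905.8 and 7147.9 (0.20). Its partner Ndufv2 read 7102.1 and 5990.4 (-0.10). Core subunits therefore stood on both sides of 0.

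The outermost complex I probes belonged to accessory subunits. Ndufb7 had 502.2 on the control and 553.7 on the knockout array (log2 fold 0.42, or 1.34-fold), and Ndufb5 read 390.5 and 418.3 (0.39). At the other end, Ndufb2 read 210.3 and 189 (-0.27). All 3 are parts of the membrane arm, and in normalized intensity they were among the dimmer probes. Ndufs4, a subunit needed for a stable complex, had 4 detected probes that did not give one direction: raw 1551.7 and 1086.1 (-0.33), 583 and 452.6 (-0.25), 4834.5 and 4372.5 (0.02), and 1729.9 and 1716.9 (0.22). The difference of 0.55 between its outer probes exceeds the log2 fold of any single detected subunit probe. Ndufa4, long counted with complex I although its protein is now placed in complex IV, read 13896.1 and 13305.2 (0.03). The assembly factor Ndufaf1, which is no subunit, stood at 0.14. The dimmer Ndufa5 probe passed the limit on the control array alone, at least 1.07-fold higher there, while the brighter one read 0.11. The probes of Ndufs1 and Ndufab1 were not detected on either array.

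Complex II, succinate dehydrogenase, joins the citric acid cycle to the chain, and its median of 0.27 was the highest, but it rests on 4 detected probes for 3 genes. The membrane anchor Sdhd was the highest of them, at 195.2 in the control and 212.7 in the knockout in raw signal. That is 1.46-fold in normalized intensity (log2 fold 0.54) but 0.18 in the authors' intensities, for a probe close to the detection limit. The other anchor, Sdhc, was well above it, at 4555.9 and 4937.6 (0.28). The 2 detected probes of the iron-sulfur subunit Sdhb disagreed, at 1596.5 and 1290.2 (-0.11) and at 1290.1 and 1312.1 (0.26). Another Sdhb probe (166.5 and 156.2) and a second Sdhc probe (135.9 and 136.4) were not detected. No probe carried the symbol of the flavoprotein Sdha, so it was not analysed here.

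Complex III, which hands electrons to cytochrome c, had a median of 0.16 over 6 probes, without its subunit Cyc1, whose name does not match the rule. Its core subunits Uqcrc1 (6022.8 and 5870.6 in raw signal, log2 fold 0.12) and Uqcrc2 (7470.3 and 7071.5, 0.06) were close to equal. The accessory subunit Uqcrb was the highest probe detected on both arrays, at 1253.5 and 1342 (0.35), and another small accessory subunit, Uqcr (now Uqcr11), stood at 0.21. The hinge protein Uqcrh was the one probe below 0, at 15556.1 and 14300.7 (-0.03). Uqcrfs1, the Rieske iron-sulfur protein, passed the detection limit on the knockout array alone, where it was at least 1.06-fold higher.

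Complex V, ATP synthase, had a median of 0.09 over 17 detected probes, with 11 above 0 (7 after median scaling, where the median was -0.01). In the catalytic head, Atp5b, the beta subunit, had 29313.8 on the control and 29894.2 on the knockout array (log2 fold 0.10). Atp5a1, the alpha subunit, read 420 and 433.2 (0.30), and Atp5c1, the rotating gamma subunit, read 10040 and 7808.3 (-0.17). Subunits of one head thus lay on both sides of 0. The c ring, through which protons pass, is encoded by a set of genes for one protein, of which Atp5g2 stood at 0.30, Atp5g1 at 0.16 and Atp5g3 at -0.05. Outside these, Atp5o of the peripheral stalk stood at 0.27 and the membrane subunit Atp5j2 at -0.16, from 19606 and 16573.5. Atp5s (now Dmac2l), which matches by name but is not a structural subunit, was the lowest at -0.26 (438.2 and 348.2). One more Atp5j probe and the Atp5k probe were not detected.

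**Figure D2:**
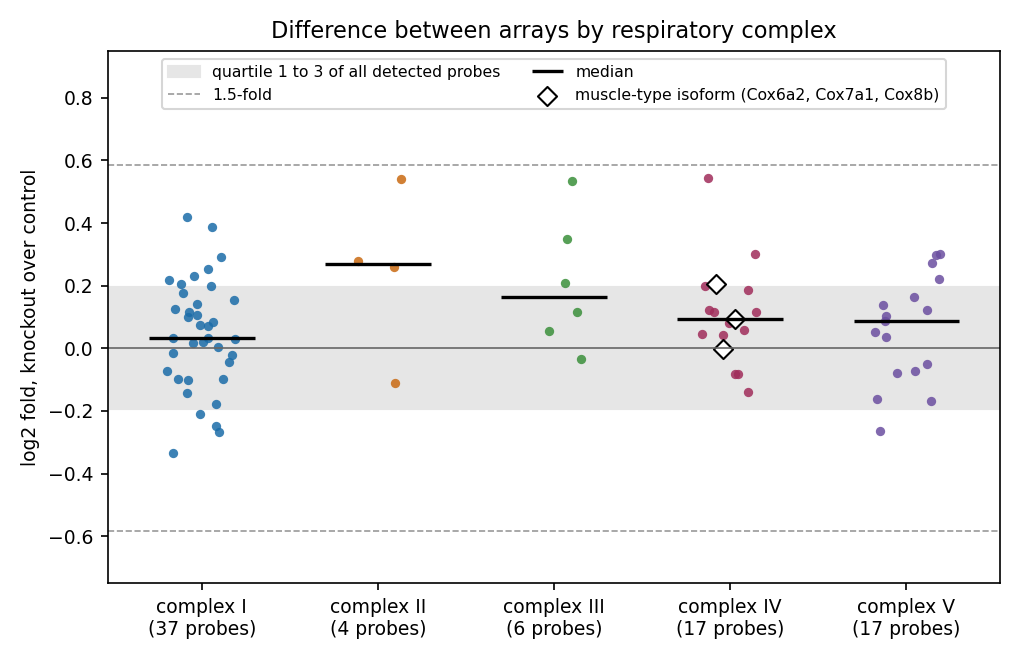
log2 fold (knockout over control, vertical) of each detected probe by complex, with the median of each complex as a bar, quartiles 1 to 3 of all detected probes in grey, and the muscle-type isoforms as diamonds. All points lie between the dashed 1.5-fold lines, and the complexes overlap, with medians from 0.03 (complex I) to 0.27 (complex II, 4 probes).

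Complex IV had a median of 0.09 over 17 detected probes, 13 of them above 0 (12 after median scaling). The ubiquitous nuclear subunits Cox4i1, Cox5a and Cox5b had log2 folds of 0.05, 0.04 and 0.08. Their raw signals on control and knockout were 14455.5 and 13825.1, 10702 and 9772.8, and 16258.4 and 16027.4. After median scaling the log2 folds were 0.04, -0.03 and 0.08. Cox7b was the highest at 0.54, from raw signals of 183.2 and 199 near the detection limit, and stood at 0.15 in the authors' intensities. Cox4i2, an isoform best known from lung and from low oxygen, was just detected (182.1 and 187.4, 0.30). The lowest were Cox7c (13230.1 and 11303.6, -0.14) and Cox6c (3743.8 and 3089.1, -0.08). Cox7a2l, which takes part in joining complexes into supercomplexes, read 0.12. The testis isoform Cox8c was not detected.

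The upstream sequences of the paired isoforms are shown because each pair holds a muscle-type and a widely used form of one subunit. They are the 250 bases before the start of each gene, from RefSeq (GRCm38.p6), 5′ to 3′ on the gene's strand. Of the 73 genes, 60 had an entry in the promoter table used, and Cox6a2 is named only. Capitals mark matches on either strand to CATGCGC, the central letters of the NRF-1 site known from respiratory genes, to CCGGAA, the ETS core bound by GABP (NRF-2), or to CAGCTG, an E-box form bound by myogenic factors.
Cox7a1, chr7:30183921-30184170, plus strand: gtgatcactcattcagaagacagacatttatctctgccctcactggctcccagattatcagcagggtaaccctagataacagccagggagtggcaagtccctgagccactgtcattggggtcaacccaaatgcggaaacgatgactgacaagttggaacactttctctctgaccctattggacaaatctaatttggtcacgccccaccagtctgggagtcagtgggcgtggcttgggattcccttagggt
Cox7a2, chr9:79759854-79760103, minus strand: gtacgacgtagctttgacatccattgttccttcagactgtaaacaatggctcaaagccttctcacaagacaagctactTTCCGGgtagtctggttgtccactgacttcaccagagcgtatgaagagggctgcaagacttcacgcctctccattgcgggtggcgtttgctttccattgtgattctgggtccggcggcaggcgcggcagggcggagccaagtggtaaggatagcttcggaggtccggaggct
Cox8b, chr7:140900447-140900696, minus strand: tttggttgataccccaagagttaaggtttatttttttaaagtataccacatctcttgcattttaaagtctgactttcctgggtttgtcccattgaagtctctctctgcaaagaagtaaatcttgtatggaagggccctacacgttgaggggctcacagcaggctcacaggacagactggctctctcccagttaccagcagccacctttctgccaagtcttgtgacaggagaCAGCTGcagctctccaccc
Cox8a, chr19:7217617-7217866, minus strand: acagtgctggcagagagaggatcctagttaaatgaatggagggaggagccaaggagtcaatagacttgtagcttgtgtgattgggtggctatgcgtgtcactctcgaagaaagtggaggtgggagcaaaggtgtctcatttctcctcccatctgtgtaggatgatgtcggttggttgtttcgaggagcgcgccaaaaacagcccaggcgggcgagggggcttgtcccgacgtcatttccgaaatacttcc
Cox6a1, chr5:115348959-115349208, minus strand: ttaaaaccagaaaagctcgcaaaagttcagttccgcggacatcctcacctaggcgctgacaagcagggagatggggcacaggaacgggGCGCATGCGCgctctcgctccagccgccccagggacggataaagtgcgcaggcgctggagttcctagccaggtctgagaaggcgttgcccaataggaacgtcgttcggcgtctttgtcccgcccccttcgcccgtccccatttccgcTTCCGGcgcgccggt

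The Cox6a1 sequence held 2 overlapping matches to the NRF-1 letters, 1 on each strand, and 1 match to the ETS core, Cox7a2 held 1 to the ETS core, Cox8b held 1 E-box, and Cox7a1 and Cox8a held none. Over the 65 promoters of the respiratory chain genes, 13.8% held CATGCGC and 30.8% held CCGGAA, where 3.24% and 12.03% of all 32851 promoters did, while CAGCTG was found in 7.69% and 13.0%. These motifs were picked after the sequences had been searched, and the matches are a description of the letters alone.

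All muscle-type isoforms were detected on both arrays and none stood apart between them. The raw signal of Cox6a2 was 8777.9 on the control and 8854.3 on the knockout array (normalized 8116 and 9363, log2 fold 0.21). Cox8b read 4731.6 and 4516.8 (0.09). Cox7a1 read 1500.5 and 1300.5 (-0.0013, and -0.13 after median scaling). Their median was 0.09, and 0.03 after median scaling. The ubiquitous partners lay in the same range: the 2 Cox6a1 probes read 0.20 (8725.8 and 8740.3) and 0.06 (11767.6 and 11402.4), Cox8a 0.19 (10320.4 and 10461.5) and Cox7a2 -0.08 (301.1 and 269.8). Muscle-type and ubiquitous forms could not be set apart by these 2 arrays.

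Muscle markers differed between the arrays unevenly. Of 8 slow fibre genes, all detected, 7 were at least 1.5-fold higher in the knockout array (6 after median scaling, 4 in the authors' intensities). Among all detected probes 3.94% were (2.75% after median scaling, and 70 of 12965 in the authors' intensities). Of the 7, Tnni1 and Myh7 were seen on the knockout array alone, with bounds of at least 2.87-fold and 1.11-fold. The bound of Myh7 does not reach 1.5-fold. The 8 summed to normalized intensities of 10207 on the control and 27096 on the knockout array. Myl2 and Myl3, myosin light chains of slow fibres and heart, had log2 folds of 5.40 and 5.27 (4.29 and 3.55 in the authors' intensities). On the control array their raw signals were 243 and 185.4, not far above the detection limit. The 19 fast and general muscle genes summed to 191124 and 194353, with a median of 0.21 and 2 of them, Tcap and Myh4, at least 1.5-fold higher (1 after median scaling). The muscle-type Cox isoforms, summed to 13750 and 15287, were closer in fold to the fast and general genes than to the slow ones. So were their ubiquitous partners (20895 and 22663), so this is not particular to the muscle-type forms. The part of muscle content in these values was not tested. Of the brown fat markers, which share Cox7a1 and Cox8b with muscle, Ucp1 was not detected, Cidea stood at 0.05 and Elovl3, also a gene of sebaceous glands, at 0.75.

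Some markers of other cells in the wound differed as well. Of 4 distinct red blood cell probes, 3 passed 1.5-fold with the knockout array lower (Hba-a1 -1.79, Hbb-b1 -1.71 and Alas2 -2.10 in log2 fold). In the authors' intensities the log2 folds of these 3 were -1.83, -1.05 and -1.20. The remaining probe, Slc4a1, stood at 0.16, from raw signals of 208.6 and 206.8 not far above the detection limit. The list summed to 21878 on the control and 6362 on the knockout array, most of it Hba-a1 (21049 and 6077). The 5 detected of 6 adipocyte genes had a median of -0.33 (-0.11 in the authors' intensities), and none passed 1.5-fold. Of them, 1 lay above 0 (Cidec, 0.22), and Lpl was the lowest at -0.52. They summed to 15296 and 11400. All 4 macrophage markers lay below 0 (39347 and 31727 in sum), with the mannose receptor Mrc1 at -0.77 and the others between -0.18 and -0.09. All 4 neutrophil markers lay above 0 (38231 and 44315), with Cxcr2 at 0.95 (0.56 in the authors' intensities). The 4 keratinocyte markers summed to 82584 and 86219, with none past 1.5-fold. The part of these cells in the subunit values was not tested.

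**Figure D3:**
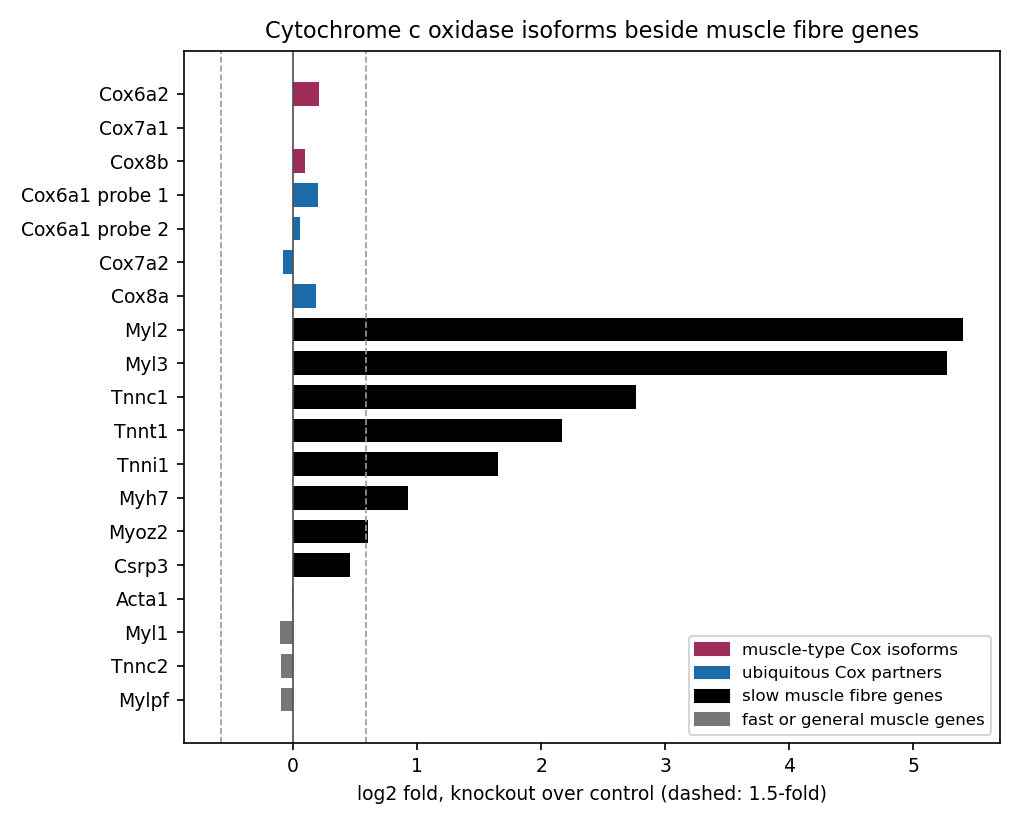
log2 fold (knockout over control) of muscle-type and ubiquitous cytochrome c oxidase isoforms, 1 bar per probe, beside the 8 slow muscle fibre genes and the 4 brightest fast or general muscle genes in the control. Cox isoforms lie between -0.08 and 0.21, while Myl2 and Myl3, dim on the control array, exceed 5 (4.29 and 3.55 in the authors' intensities). The bars of Tnni1 and Myh7 are fitted values of genes detected in the knockout only.

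There were 10 genes with more than 1 detected probe, and these show how far a fold can move within one gene on these arrays. The range between probes had a median of 0.14 on the log2 scale and reached 0.55, and in 6 of the 10 genes all probes had one sign. The 2 probes of Cox6b (now Cox6b1) read 0.11 and 0.12, and those of Ndufc1 0.10 and 0.11.

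Few other genes of mitochondrial energy metabolism passed 1.5-fold, and the lists are too short to be set apart from the 3.94% higher and 4.67% lower of all detected probes. Of 14 detected citric acid cycle and pyruvate dehydrogenase genes, none was 1.5-fold higher and 1 was lower (median 0.13, and 0.02 after median scaling). This was Fh1, fumarate hydratase, at 4032.4 in the control and 1990.1 in the knockout (log2 fold -0.84, or 1.79-fold), measured by 1 detected probe and 1.73-fold lower in the authors' intensities. Idh3a, a subunit of the NAD-dependent isocitrate dehydrogenase, was at the other end with 0.40. Of 10 detected fatty acid oxidation genes none passed 1.5-fold in either direction (median 0.09, and -0.04 after median scaling).

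Of 19 detected assembly factors 1 was 1.5-fold lower (median 0.01, and -0.11 after median scaling): Tmem126b, a complex I assembly factor, at 546.2 and 357.8 (log2 fold -0.63, -0.46 in the authors' intensities). Among 9 detected regulators of mitochondrial biogenesis none passed 1.5-fold either way (1 was lower after median scaling). Tfam, which packages mitochondrial DNA, stood at -0.51 and the factor Nrf1 at 0.37, and Ppargc1a, the coactivator of mitochondrial biogenesis, was not detected. The electron carriers Cyc1 (0.28), Etfb (0.15), Etfa (-0.10) and Etfdh (-0.24) lay on both sides of 0, and cytochrome c, Cycs, passed the detection limit on the knockout array alone, at least 1.04-fold higher.

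**Figure D4:**
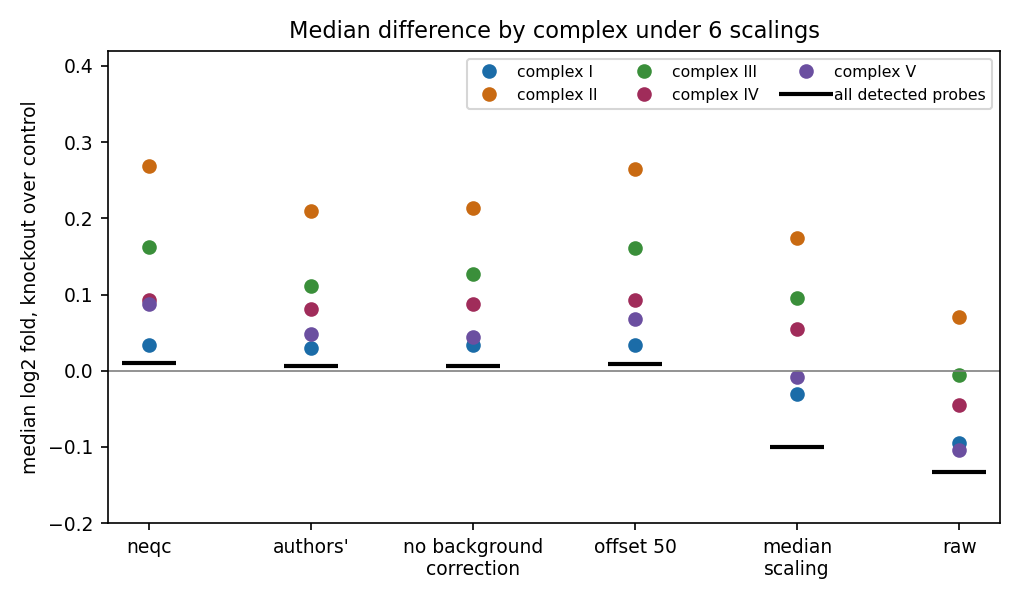
Median log2 fold (knockout over control, vertical) of each complex under 6 scalings of the same signals, with the median of all detected probes as a black bar. The medians of complexes I and V are above 0 after quantile normalization and below 0 after median scaling and in raw signal, where those of complexes III and IV are below 0 too, and every complex median lies above that of all detected probes in each scaling.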

How the data were processed

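Gene expression of 1 control and 1 knockout array was read from 2 deposited tables of probe intensity on a linear scale: raw mean bead signals and the authors' normalized intensities, made by a method that the sources do not state. The deposited value table matches the second at each of the 25697 probes. The submitters' processing notes name GenomeStudio 2011.1. The deposited detection p-values do not follow the rows (Spearman's rho between intensity and p-value 0.0024 and -0.00041), so within each array they were reassigned by rank of intensity, and probes tied with the limit counted as detected.

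The raw values were then processed by neqc (limma 3.58.1, R 4.3.3: normexp background from the detection p-values, offset 16, quantile normalization, log2). The background correction enlarges folds of dim probes, and the offset shrinks them only in part. Over the 22 dimmer subunit probes the SD was 0.27 here and 0.14 without background correction. A shift common to all genes is hidden by quantile normalization. With 1 array per group there is no test. A rule of size, 1.5-fold, was used for counts. Each member probe counts on its own, other genes by their brightest probe. For a probe detected on 1 array, the bound compares it with the other array's value or, if higher, the lowest value detected there.

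Named were all muscle-type Cox isoforms and partners, all succinate dehydrogenase probes, and the 3 highest and 3 lowest probes of each complex among those detected on both arrays. Genes past 1.5-fold or with detected probes further apart than that were to be named too, but no member met either. Other members, and genes of other lists outside these, were named after their values were seen. The members and lists were chosen with earlier results of these data known. Symbols were matched through a RefSeq table (GRCm38.p6), which held all 88 member probes. The procedure was tested on simulated data.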

Additional observations from a re-analysis of the deposited data

How the results depend on the processing

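The counts of subunit probes at least 1.5-fold higher and lower were 0 and 0 under every alternative tried: the authors' intensities, no background correction, median scaling, an offset of 50, no detection filter, detection on both arrays, 1 probe per gene, and 3 chosen after seeing the data (raw signals, without Ndufaf1, Atp5s and Cox7a2l, and the p-values in the order of the file). By the same rule, of the 12965 detected probes 70 were higher and 89 lower in the authors' intensities. Without background correction these counts were 64 and 86. With an offset of 50 they were 202 and 235, and in raw signals 24 and 368. The p-values in the order of the file, unrelated to signal, kept 22 subunit probes. Where few probes pass or are kept, a count of 0 says little about the subunits. With no replicates, a median was taken as moved when it differed by 0.1 or more on the log2 scale. Of 60 alternative medians 8 moved. The limit of 0.1 is larger than most of the medians, so a median could change sign and not count as moved. Those of complexes I (-0.030) and V (-0.0078) did so after median scaling. In raw signals, where all detected probes had a median of -0.13, the medians were -0.067 for all subunits, -0.094 for complex I, 0.070 for complex II, -0.0060 for complex III, -0.045 for complex IV, -0.10 for complex V and -0.067 for the muscle-type isoforms. With no detection filter the complex II median was 0.14, as 2 dim probes entered. For single isoforms a limit of 1.5-fold was used, which none of 15 values passed, though 4 differed by 0.1 or more: in raw signals Cox6a2 was 0.013, Cox7a1 -0.21 and Cox8b -0.067, and after median scaling Cox7a1 was -0.13. Counting Ndufa4 with complex IV moved no median by 0.1. No paired analysis was possible because each group is 1 array, and leaving out an array was not possible for the same reason. Precision is limited by the number of arrays, and signals near the detection limit (Sdhd, Cox7b, Uqcrfs1) rest on a background correction that enlarges their folds.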
